A study of Mus musculus with 6 samples.

Results

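The genes that open the follicle and loosen the cumulus around the oocyte at ovulation were followed in granulosa cells of mice bred to lose Foxo1 and Foxo3 there, labelled Foxo1/3 dKO. The set held 10 gene symbols: Ptgs2, Has2, Tnfaip6, Ptx3, Areg, Ereg, Btc, Pgr, Adamts1 and Ptger2. Every probe set whose only gene symbol in the platform annotation was one of these was taken, which gave 15 probe sets of 9 genes, out of 45037 probe sets and 18193 genes. Areg was not analysed here. Where a gene had several probe sets, the one with the highest mean intensity over all arrays represents it below, and the other 6 are given separately.

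The study measured RNA of mouse ovarian granulosa cells on 6 Affymetrix arrays, 2 per group. The groups were Foxo1/3 dKO at 2 months of age, Foxo1/3 dKO at day 25 and wild type at day 25, all on a mixed FVB and C57BL/6 background. The labels write the dKO genotype as Foxo1 f/-;Foxo3 f/-; Amhr2-cre. Deletion of the allele written f depends on Cre made from the Amhr2 gene, which granulosa cells express. Whether the allele written - is missing in all cells is unknown here. The labels name no gonadotropin treatment and do not say whether the 2 arrays of a group hold RNA of different mice. The p-values therefore reflect the spread between these arrays, which may be technical. Wild-type cells at 2 months were not analysed here, so age and genotype cannot be told apart when dKO at 2 months is set against wild type.

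Before ovulation a surge of luteinizing hormone reaches the follicle wall, and granulosa cells release EGF-like ligands in answer. These ligands act on the cumulus cells around the oocyte, which then make prostaglandins and a gel of hyaluronan that is held together by specialised binding proteins. The progesterone receptor and secreted proteases act at the same time in the follicle wall and allow it to open. Outside that window most of these genes are kept low in granulosa cells.

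In the 9 genes no difference passed an adjusted p of 0.05 in any comparison, and over all 45037 probe sets 0 passed in limma as well (0%). At an unadjusted p below 0.05 stood 3668 probe sets (8.14%) for dKO against wild type at day 25, 2514 (5.58%) for dKO at 2 months against dKO at day 25, and 5900 (13.1%) when dKO at 2 months was set against wild type. The 9 genes fell into 2 kinds by their signal. Ptger2, Adamts1, Tnfaip6, Ptx3 and Btc reached an intensity of 64 on at least 2 arrays. Btc did so only on dKO arrays, with 59 and 54 in wild type. Tnfaip6 (51 and 65) and Ptx3 (60 and 79) reached 64 on only 1 wild-type array. This grouping is therefore not independent of the differences of Btc, Tnfaip6 and Ptx3. Ptgs2, Has2, Ereg and Pgr never exceeded 28 on any array or probe set, and the means of their representative probe sets lay between percentiles 15.2 and 24.0 of all probe sets. Such signals lie close to the lowest values on these arrays, which were 6 or 7, and a change of 1 unit in the rounded values already shifts the log2 value of a probe set at 13 by 0.0995. Probe sets differ in how brightly they report, so a dim signal does not give the amount of RNA.

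**Figure D1:**
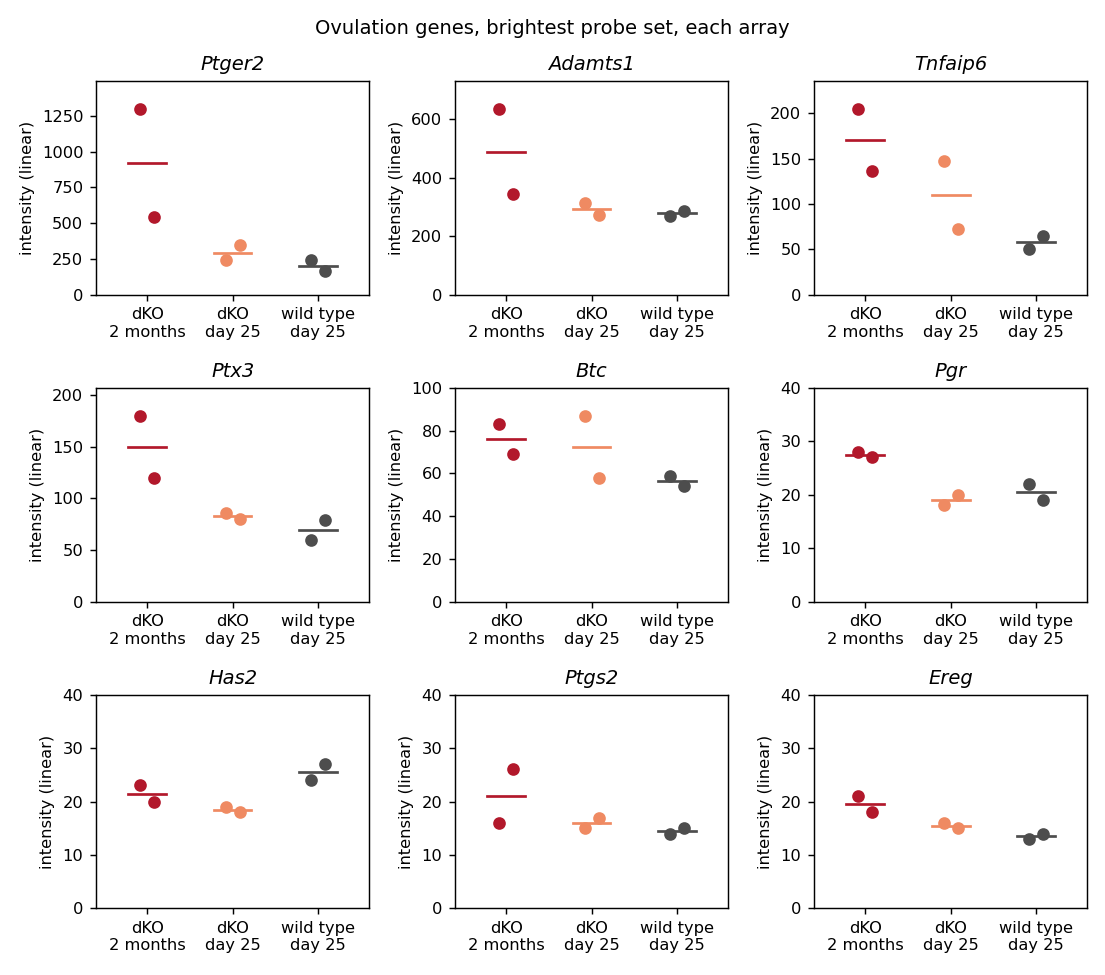
Intensity on a linear scale (y axis) of the representative probe set of each of the 9 genes on each array, for dKO at 2 months, dKO at day 25 and wild type at day 25 (x axis, 2 points per group, line at the mean). Ptger2 reached 1298 and 542 in dKO at 2 months, above every other array, while Ptgs2, Has2, Ereg and Pgr stayed at or below 28 throughout.

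The arrays had a median intensity of 73 or 74. Granulosa markers were present on all of them: 10 of 11 listed markers were measured, none was below 213 on any array, and their summed intensity was 111458 and 103073 in dKO at 2 months, 112885 and 102700 in dKO at day 25 and 100057 and 105692 in wild type. Single markers moved both ways. In dKO at 2 months 7 had higher and 3 lower means than in wild type, with log2 differences from -1.15 (Esr2) to 0.74 (Foxl2). Foxo1 was 126 and 343 in dKO at 2 months, 904 and 2291 in dKO at day 25 and 10319 and 7666 in wild type, whereas Foxo3 was not lower in dKO (2484 and 1872 at 2 months, 2539 and 3279 at day 25, against 1632 and 1342 in wild type). Which exons the alleles remove is not given in the labels, so the position of these probes relative to the deletion is unknown here. dKO 2-month replicate 1 stood apart, with a correlation of log2 intensity across probe sets of 0.964 to 0.979 with each of the rest, where the other 5 arrays reached 0.982 to 0.993 among themselves. For the representative probe set of each member, differences at 2 months are therefore also given without that array. Those of the members' other probe sets and of the wider pathway are given only with it.

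The 4 genes with the clearest signal are shown here with the 250 bases before their annotated start, because their intensities were all highest on dKO 2-month replicate 1. The sequences are from RefSeq on build GRCm38.p6, written on the gene's own strand, and lie at chr2:52037863-52038112 (plus strand) for Tnfaip6, chr3:66219637-66219886 (plus strand) for Ptx3, chr16:85803114-85803363 (minus strand) for Adamts1 and chr14:44987861-44988110 (plus strand) for Ptger2. Capitals mark matches, on either strand, to the letters of 5 motifs: AP-1 as TGANTCA, the core of the cAMP response element as TGACG, FOXO as TGTTTAC, C/EBP as TTGCNNAA and SP1 as GGGCGG.
Tnfaip6: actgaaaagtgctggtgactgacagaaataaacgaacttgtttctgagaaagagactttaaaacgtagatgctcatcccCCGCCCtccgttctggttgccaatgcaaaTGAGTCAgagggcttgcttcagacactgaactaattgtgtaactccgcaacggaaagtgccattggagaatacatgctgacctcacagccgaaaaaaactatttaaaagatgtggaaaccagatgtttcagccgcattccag
Ptx3: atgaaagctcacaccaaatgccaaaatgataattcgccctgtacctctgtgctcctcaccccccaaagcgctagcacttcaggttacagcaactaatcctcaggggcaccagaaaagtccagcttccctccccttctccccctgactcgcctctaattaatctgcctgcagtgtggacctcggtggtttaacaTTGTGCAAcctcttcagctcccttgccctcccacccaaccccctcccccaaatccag
Adamts1: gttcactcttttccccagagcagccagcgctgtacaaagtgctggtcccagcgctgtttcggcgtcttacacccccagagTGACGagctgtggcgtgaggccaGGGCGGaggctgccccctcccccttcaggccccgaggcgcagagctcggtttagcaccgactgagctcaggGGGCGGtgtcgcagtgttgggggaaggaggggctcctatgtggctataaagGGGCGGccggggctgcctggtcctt
Ptger2: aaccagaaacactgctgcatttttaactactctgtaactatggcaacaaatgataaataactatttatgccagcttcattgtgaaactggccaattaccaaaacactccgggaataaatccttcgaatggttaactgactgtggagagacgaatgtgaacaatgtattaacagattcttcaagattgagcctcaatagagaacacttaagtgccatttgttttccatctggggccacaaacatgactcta
The Tnfaip6 window held an AP-1 match and an SP1 match. The Ptx3 window held a C/EBP match, and the Adamts1 window held a match to the cAMP response element core and 3 SP1 matches. No letters of the 5 motifs were in the Ptger2 window, and none of the 4 windows held the FOXO letters. No match overlapped one of another motif. Of 32841 promoter windows of the same length, 6.75% held the AP-1 letters, 17.8% the cAMP response element core, 3.17% the FOXO letters, 9.57% the C/EBP letters and 32.7% the SP1 letters. A match is a description of the letters and not a site of binding.

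The EGF-like ligands carry the signal of luteinizing hormone from the follicle wall to the cumulus. Btc, betacellulin, had intensities of 83 and 69 in dKO at 2 months, 87 and 58 in dKO at day 25 and 59 and 54 in wild type. The dKO groups overlapped each other, and at day 25 dKO overlapped wild type. The log2 difference of dKO at day 25 from wild type was 0.33 ± 0.23 (SE), with a 95% interval of -0.26 to 0.91 and limma adjusted p = 0.731. Dropping dKO day 25 replicate 1 made it 0.0385, and dropping replicate 2 of that group made it 0.62. Between the dKO ages it was 0.09 ± 0.23, and its sign turned when dKO 2-month replicate 1 (-0.04) or dKO day 25 replicate 2 (-0.20) was dropped. For dKO at 2 months against wild type at day 25 it was 0.42, and 0.29 without dKO 2-month replicate 1. The other Btc probe set lay between 9 and 12 on all arrays.

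Ereg, epiregulin, had 21 and 18 in dKO at 2 months, 16 and 15 in dKO at day 25 and 13 and 14 in wild type. The 3 groups did not overlap, although the whole range covered 8 units of a dim probe set. The log2 difference of dKO at 2 months from wild type at day 25 was 0.50 ± 0.12 (SE), with limma adjusted p = 0.27. That of dKO at day 25 was 0.19 ± 0.12, adjusted p = 0.71. Without dKO 2-month replicate 1 the difference of dKO at 2 months from wild type was 0.39, and with a pseudocount of 16 it was 0.27. Between the dKO ages it was 0.31, and 0.20 without that replicate.

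The prostaglandin pair of the set is the enzyme that starts synthesis and a receptor that reads the product. Ptgs2, the inducible cyclooxygenase, had 16 and 26 in dKO at 2 months, 15 and 17 in dKO at day 25 and 14 and 15 in wild type. The highest value lay on dKO 2-month replicate 2, and replicate 1 of that group fell within the range of the dKO arrays at day 25. The other Ptgs2 probe set stayed between 10 and 13. The log2 difference of dKO at day 25 from wild type was 0.13, with a 95% interval of -0.49 to 0.75. Between the dKO ages it was 0.34, but 0.67 without dKO 2-month replicate 1 and 0.0025 without replicate 2 of that group. Set against wild type, dKO at 2 months differed by 0.47, by 0.80 without replicate 1 and by 0.13 without replicate 2.

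Ptger2, the EP2 receptor that raises cAMP on binding prostaglandin E2, had 1298 and 542 in dKO at 2 months, 240 and 349 in dKO at day 25 and 244 and 165 in wild type. Both dKO arrays at 2 months lay above all others, while the dKO and wild-type arrays at day 25 overlapped. The mean was 920 ± 535 in dKO at 2 months, 294.5 ± 77.1 in dKO at day 25 and 204.5 ± 55.9 in wild type (SD, n = 2 each). dKO at 2 months was 2.89-fold higher than dKO at day 25, a log2 difference of 1.53 ± 0.48 (SE) with limma adjusted p = 0.712 and an unadjusted p of 0.026. Against wild type it was 4.16-fold higher, a log2 difference of 2.06 ± 0.48 with adjusted p = 0.268. The replicates at 2 months differed 2.39-fold, against 1.45-fold in dKO at day 25 and 1.48-fold in wild type. Without dKO 2-month replicate 1 the log2 difference was 0.90 from dKO at day 25 and 1.43 from wild type. At day 25 the difference of dKO from wild type was 0.53, ranging over arrays left out between 0.25 and 0.81.

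The matrix of the cumulus is built from hyaluronan, which Has2 makes, and from proteins that join its chains. Has2, hyaluronan synthase, had 23 and 20 in dKO at 2 months, 19 and 18 in dKO at day 25 and 24 and 27 in wild type. Both dKO groups lay below wild type without overlap, although dKO 2-month replicate 1 (23) was only 1 unit below wild-type replicate 1 (24). The log2 difference at day 25 was -0.44 ± 0.12 (SE), with limma adjusted p = 0.537 and an unadjusted p of 0.0158, and -0.27 with a pseudocount of 16. The difference of dKO at 2 months was 0.20 from dKO at day 25 and -0.24 from wild type at day 25. These were 0.11 and -0.33 without dKO 2-month replicate 1. The other Has2 probe set ran the same way, with 17 and 21 in dKO at 2 months, 18 and 16 in dKO at day 25 and 22 on both wild-type arrays.

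Tnfaip6 encodes TSG-6, which moves heavy chains of inter-alpha-inhibitor onto hyaluronan. Its intensities were 205 and 137 in dKO at 2 months, 148 and 73 in dKO at day 25 and 51 and 65 in wild type. All 4 dKO arrays lay above both wild-type arrays, and the dKO ages overlapped. The mean was 171 ± 48.1 in dKO at 2 months, 110.5 ± 53.0 in dKO at day 25 and 58 ± 9.90 in wild type (SD, n = 2 each). At day 25 dKO differed from wild type by a log2 value of 0.84 ± 0.40 (SE), with limma adjusted p = 0.657. From wild type at day 25, dKO at 2 months differed by 1.53 ± 0.40, with adjusted p = 0.296. The size at day 25 depended on the array left out. The log2 difference from wild type was 1.35 when dKO day 25 replicate 2 was dropped and 0.34 when replicate 1 of that group was. The difference of dKO at 2 months from wild type at day 25 was 1.24 without dKO 2-month replicate 1. Between the dKO ages it was 0.68, and 0.39 without that array, 0.18 without dKO day 25 replicate 2 and 1.19 without replicate 1 of that group.

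Ptx3, a pentraxin that binds TSG-6 and steadies the matrix, had 180 and 120 in dKO at 2 months, 86 and 80 in dKO at day 25 and 60 and 79 in wild type. The 3 groups did not overlap, with the gap between the day 25 groups only 1 unit wide. dKO at 2 months was 1.76-fold higher than dKO at day 25 (log2 difference 0.82 ± 0.24 (SE), limma adjusted p = 0.712) and 2.12-fold higher than wild type (1.08 ± 0.24, adjusted p = 0.259). Without dKO 2-month replicate 1 these log2 differences were 0.53 and 0.79. At day 25 dKO differed from wild type by 0.27, between 0.0695 and 0.46 over arrays left out. The dimmer Ptx3 probe set, between 18 and 27, showed no such order and had a log2 difference of -0.16 between dKO at 2 months and wild type.

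The last pair acts in the wall of the follicle. Pgr, the progesterone receptor, which in mice is needed for the follicle to rupture, had 28 and 27 in dKO at 2 months, 18 and 20 in dKO at day 25 and 22 and 19 in wild type. Both dKO arrays at 2 months lay above the other 4, and the day 25 groups overlapped. The log2 difference between the dKO ages was 0.51 ± 0.12 (SE), with limma adjusted p = 0.712 and an unadjusted p of 0.0082, on a probe set whose whole range was 10 units. It was 0.49 without dKO 2-month replicate 1 and 0.31 with a pseudocount of 16. From wild type it was 0.41, and 0.38 without that replicate. The other 2 Pgr probe sets stayed between 11 and 15 with log2 differences between the dKO ages of 0.10 and 0.00.

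Adamts1, a secreted protease that cuts versican and in mice depends on the progesterone receptor during ovulation, had 636 and 344 in dKO at 2 months, 314 and 273 in dKO at day 25 and 270 and 287 in wild type. Both dKO arrays at 2 months lay above the rest, one of them by only 30 units, and the day 25 groups overlapped. The log2 difference of dKO at 2 months was 0.67 ± 0.31 (SE) from dKO at day 25, with limma adjusted p = 0.712, and 0.75 ± 0.31 from wild type, with adjusted p = 0.398. Without dKO 2-month replicate 1 these were 0.23 and 0.30. At day 25 the log2 difference of dKO from wild type was 0.07 ± 0.31, with a 95% interval of -0.72 to 0.87, and turned to -0.028 without dKO day 25 replicate 1.

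**Figure D2:**
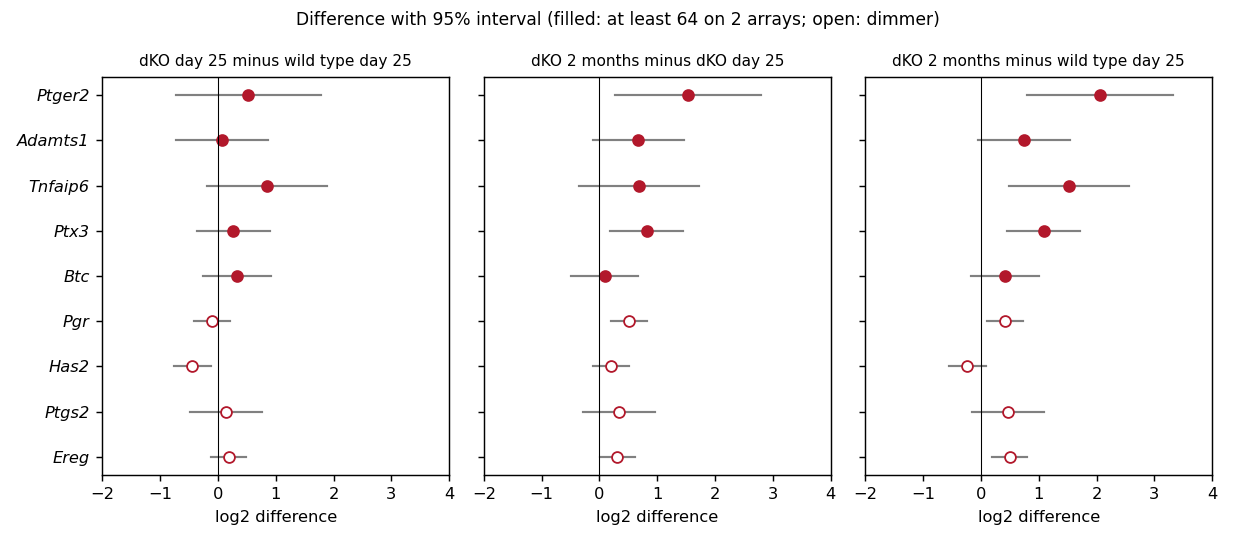
Log2 difference (x axis) with its 95% interval for the representative probe set of each gene (y axis) in the 3 comparisons, from limma; filled points are the 5 genes that reached 64 on at least 2 arrays, open points the 4 dimmer ones. The interval of Has2 lies below 0 for dKO against wild type at day 25, and those of Ptger2, Tnfaip6, Ptx3, Ereg and Pgr lie above 0 for dKO at 2 months against wild type, with no adjusted p under 0.05.

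Counted over the 9 genes, dKO against wild type at day 25 gave 7 higher and 2 lower means, where 55.7% of all genes had a higher mean, with a median log2 difference of 0.19 against 0.03 over all genes. Tnfaip6, Ptx3 and Ereg were higher in dKO without overlap, 3 of 9 where 26.4% of all genes were, and Has2 was lower without overlap, 1 of 9 where 19.5% of all genes were. No member was higher at an unadjusted p below 0.05 (0 of 9, against 4.89% of all genes), and Has2 was lower (1 of 9, against 3.44%). These counts changed to 2 higher (Tnfaip6 and Btc) and 0 lower without dKO day 25 replicate 2, and to 0 lower without wild-type replicate 2. The exact permutation test of 2 arrays against 2, two-sided, cannot give a p below 0.333.

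Between dKO at 2 months and dKO at day 25 all 9 representative probe sets had higher means at 2 months, where 53.2% of all genes did, and the median log2 difference was 0.51, against 0.02 over all genes. Has2, Ptx3, Ereg, Pgr, Adamts1 and Ptger2 were higher without overlap, 6 of 9 where 19.7% of all genes were, and 0 were lower without overlap, where 17% were. Ptger2, Ptx3, Ereg and Pgr were higher at an unadjusted p below 0.05, 4 of 9 against 3.73% of all genes. The genes counted changed with the arrays used. Only Pgr was left without dKO day 25 replicate 2 (1 of 9). Pgr and Ptgs2 were counted without dKO 2-month replicate 1, Pgr and Tnfaip6 without dKO day 25 replicate 1, and Pgr and Ptx3 without either wild-type array (2 of 9 each). Ptger2 and Ereg were counted in none of these fits. Without dKO 2-month replicate 2 the count was 5, with Adamts1 added. The median log2 difference was 0.39 without dKO 2-month replicate 1. Among the 6 other probe sets, that of Ptx3 was lower at 2 months (-0.14) and 1 of Pgr did not differ in its mean. That of Has2 overlapped between the dKO ages (17 and 21 against 18 and 16). The closest values of its dim representative were 20 at 2 months and 19 at day 25.

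Set against wild type at day 25, dKO at 2 months gave 8 higher means and 1 lower (Has2), where 55.6% of all genes had a higher mean, and a median log2 difference of 0.50 against 0.04 over all genes. The groups overlapped for 0 of the 9, with 8 higher, where 26.6% of all genes were, and 1 lower, where 17.3% were. Ptger2, Tnfaip6, Ptx3, Ereg and Pgr were higher at an unadjusted p below 0.05, 5 of 9 against 9.54% of all genes. Without dKO 2-month replicate 1 the count was 4, namely Ptger2, Ptx3, Ereg and Ptgs2. It was 3 without wild-type replicate 1 (Ptger2, Ereg and Pgr) and 3 without wild-type replicate 2 (Tnfaip6, Ptx3 and Ereg). It was 6 without dKO 2-month replicate 2, where Adamts1 was added, and 6 without either dKO day 25 array, where Btc was added. The 3 comparisons share arrays, so their counts are not separate evidence.

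Marker genes of other ovarian and blood cells also varied from array to array. All 15 leukocyte markers were highest on dKO 2-month replicate 1, with a summed intensity of 21739 and 6910 in dKO at 2 months, 10084 and 5775 in dKO at day 25 and 2157 and 4262 in wild type, and none was at 0 (the lowest value was 32, for Coro1a). All 10 endothelial markers were likewise highest on that array, with sums of 3426 and 1765 in dKO at 2 months, 1141 and 1642 in dKO at day 25 and 901 and 1077 in wild type (lowest value 20, for Vwf). Stromal and smooth muscle markers summed to 50488 and 27024 in dKO at 2 months, 30311 and 37235 in dKO at day 25 and 25088 and 17389 in wild type (lowest value 76, for Cnn1), with 6 of 12 highest on dKO 2-month replicate 1. The sum of the oocyte markers was lowest there. It was 6022 and 36713 in dKO at 2 months, 46748 and 68929 in dKO at day 25 and 33038 and 19735 in wild type. The lowest single value was 34, for Sohlh1 on wild-type replicate 1, against 41 on dKO 2-month replicate 1. Theca and interstitial markers summed to 46969 and 38320 in dKO at 2 months, 16325 and 30035 in dKO at day 25 and 21221 and 24282 in wild type. The 7 measured did not move together. Between the dKO ages 4 had higher means (Cyp17a1, Star, Cyp11a1 and Hsd3b1) and 3 lower (Ptch1, Gli1 and Hhip). Surface epithelial markers summed to 5471 and 3747 in dKO at 2 months, 3001 and 3533 in dKO at day 25 and 2946 and 2827 in wild type. Luteal markers, which share genes with the theca list, summed to 38781 and 29581 in dKO at 2 months, 17097 and 25849 in dKO at day 25 and 21395 and 25571 in wild type. Between the dKO ages 6 of 7 had higher means, among them Ptgfr by a log2 value of only 0.01, and Akr1c18 was lower. Erythrocyte markers summed to 789 and 444 in dKO at 2 months, 421 and 362 in dKO at day 25 and 170 and 179 in wild type. Only 3 of 5 listed were measured, and 2 of these did not reach 64 on 2 arrays. Most of the sum was Alas2, at 598 and 398 in dKO at 2 months, 364 and 289 in dKO at day 25 and 129 and 127 in wild type. Hba-a1 lay between 16 and 22 on all arrays. Fewer cells of a type and less RNA per cell cannot be told apart in these bulk samples.

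Of the 5 brighter ovulation genes, 4 had their highest value on dKO 2-month replicate 1, and Btc had its highest on dKO day 25 replicate 1. Their median level relative to the mean of the 6 arrays was 0.92 and 0.34 on the log2 scale in dKO at 2 months, -0.10 and -0.24 in dKO at day 25 and -0.58 and -0.31 in wild type. The median leukocyte marker stood at 1.72 and -0.02 in dKO at 2 months, 0.51 and -0.21 in dKO at day 25 and -1.46 and -0.55 in wild type. The median endothelial marker stood at 1.11 and 0.19 in dKO at 2 months, -0.31 and 0.10 in dKO at day 25 and -0.78 and -0.47 in wild type. The median theca marker stood at 0.55 and 0.66 in dKO at 2 months, -0.44 and 0.41 in dKO at day 25 and -0.17 and -0.54 in wild type, and the median luteal marker at 0.47 and 0.68 in dKO at 2 months, -0.51 and -0.23 in dKO at day 25 and -0.28 and -0.26 in wild type. Both of these medians were highest on dKO 2-month replicate 2. The median stromal (0.45), surface epithelial (0.98) and erythrocyte marker (1.13, only 3 genes) were highest on dKO 2-month replicate 1, like those of leukocytes and endothelium. The part of leukocyte, endothelial, stromal, theca, luteal, surface epithelial, erythrocyte and oocyte RNA in the members' differences was not tested.

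**Figure D3:**
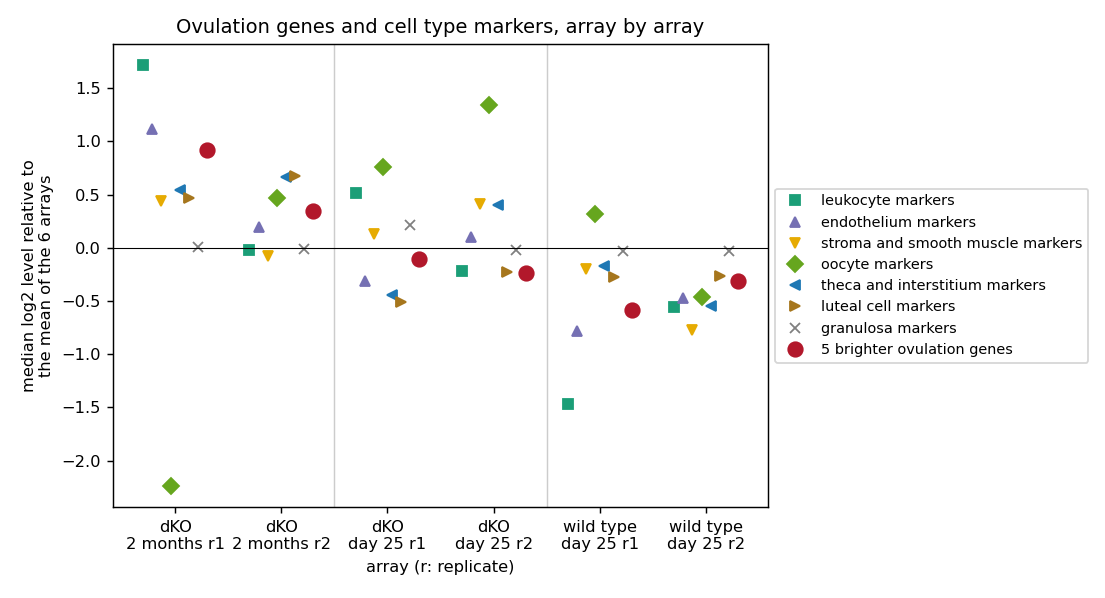
Median log2 level relative to the mean of the 6 arrays (y axis) of 7 sets of cell type markers and of the 5 brighter ovulation genes, on each array (x axis). Leukocyte (1.72), endothelial (1.11) and stromal (0.45) markers and the ovulation genes (0.92) are all highest on dKO 2-month replicate 1, where oocyte markers are lowest (-2.24). Theca (0.66) and luteal (0.68) markers are highest on replicate 2 of that group, and granulosa markers stay between -0.03 and 0.21. Surface epithelial (0.98) and erythrocyte (1.13) markers, not shown, are also highest on replicate 1. Of the ovulation genes, Btc, Tnfaip6 and Ptx3 did not reach 64 on both wild-type arrays.

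Genes with the pattern most like a member were sought for Ptger2 and Tnfaip6, whose representative probe sets spanned over 4-fold between arrays and reached 200. Tnfaip6 met both limits only through dKO 2-month replicate 1 (205, with 148 the next highest). The matches are given only with that array. Likeness was the root mean square difference of log2 values, each centred on its mean over the 6 arrays, so a smaller value is more alike. Nearest to Ptger2 were D630039A03Rik (0.14), Clca3a2 (0.18) and Emcn (0.19), the last of which encodes the endothelial sialomucin endomucin and was among the endothelial markers. D630039A03Rik had 655 and 220 in dKO at 2 months, 116 and 171 in dKO at day 25 and 111 and 64 in wild type. Clca3a2, with a dim probe set, had 78 and 35, 13 and 16, and 13 and 11 in the same order. Emcn had 402 and 169 in dKO at 2 months, 70 and 146 in dKO at day 25 and 82 and 64 in wild type. Nearest to Tnfaip6 were Nr3c1 (0.14), the glucocorticoid receptor, Frem2 (0.16) and Sema4b (0.18). Nr3c1 had 752 and 504 in dKO at 2 months, 566 and 343 in dKO at day 25 and 181 and 272 in wild type.

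The wider pathway was read from 7 lists with 97 measured genes. None of these passed an adjusted p of 0.05 in any comparison. Counts below are of genes with an unadjusted p below 0.05. In dKO at day 25, 5 of 97 stood higher and 7 lower than in wild type, where 4.89% and 3.44% of all genes did. In dKO at 2 months, 9 stood higher and 5 lower than in dKO at day 25, where 3.73% and 2.91% of all genes did, and 13 higher and 7 lower than in wild type, where 9.54% and 5.38% did. The counts of each list below are to be read beside these same shares. As for the members, the comparisons share arrays, so the counts of a list are not separate evidence.

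Among 13 measured genes of the EGF family and its receptors, 1 was higher and 0 lower at day 25, 0 and 1 between the dKO ages, and 1 and 0 for dKO at 2 months relative to wild type. The higher one was Nrg1, a neuregulin with a dim probe set, at 16 and 17 in dKO at 2 months, 17 and 18 in dKO at day 25 and 14 and 13 in wild type. Egfr, the receptor of the ligands, had 1870 and 1106 in dKO at 2 months, 1789 and 1062 in dKO at day 25 and 1234 and 1310 in wild type, with the groups overlapping. Egf was lower at 2 months, at 50 and 69 against 87 and 107 in dKO at day 25 (log2 difference -0.71 ± 0.26 (SE), limma adjusted p = 0.712).

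Prostaglandin genes went both ways. Of 11 measured, 2 were higher and 0 lower at day 25, 1 higher and 3 lower in dKO at 2 months than at day 25, and 1 higher and 3 lower in dKO at 2 months than in wild type. Slco2a1, which carries prostaglandins into cells for breakdown, had 1115 and 645 in dKO at 2 months, 145 and 345 in dKO at day 25 and 200 and 184 in wild type, so both dKO arrays at 2 months were above the rest. Its log2 difference between the dKO ages was 1.92 ± 0.48 (SE), with limma adjusted p = 0.712. Ptger3, the EP3 receptor, which usually lowers cAMP, had 20 and 31 in dKO at 2 months, 60 and 85 in dKO at day 25 and 126 and 77 in wild type. It was lower in dKO at 2 months, by -1.94 ± 0.35 on the log2 scale from wild type at day 25 (adjusted p = 0.216). Ptgis, prostacyclin synthase, was also lower there, at 1000 and 1990 in dKO at 2 months, 2967 and 2565 in dKO at day 25 and 3634 and 3963 in wild type. Hpgd, which inactivates prostaglandins, had 1871 and 2399 in dKO at 2 months, 2773 and 2231 in dKO at day 25 and 3402 and 3015 in wild type. Ptger4, the EP4 receptor, stood out at day 25, with 235 and 397 in dKO and 186 and 131 in wild type, and so did Abcc4, an exporter of prostaglandins, with 1047 and 1306 against 648 and 645.

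Partners of the hyaluronan matrix included the gene with the smallest p of any list for dKO at 2 months against wild type. Cd44, the hyaluronan receptor, had 200 and 221 in dKO at 2 months, 102 and 116 in dKO at day 25 and 85 and 74 in wild type. The 3 groups did not overlap, and dKO 2-month replicate 1 was the lower of its pair. The log2 difference of dKO at 2 months was 1.40 ± 0.13 (SE) from wild type, with limma adjusted p = 0.138, and 0.94 ± 0.13 from dKO at day 25. Itih2, a heavy chain that TSG-6 joins to hyaluronan, ran the other way, with 135 and 141 in dKO at 2 months, 162 and 263 in dKO at day 25 and 351 and 363 in wild type. Its log2 difference in dKO at 2 months from wild type at day 25 was -1.37 ± 0.24, with limma adjusted p = 0.215. Has3, another hyaluronan synthase, was highest in dKO at day 25, with 155 and 249, against 57 and 123 in dKO at 2 months and 95 and 66 in wild type. Of 15 measured, 2 were higher and 2 lower at day 25, 1 and 1 between the dKO ages, and 1 and 1 when dKO at 2 months was set against wild type. Ugdh, which makes a sugar precursor of hyaluronan, was the other lower gene at day 25, at 1260 and 1226 in dKO against 1448 and 1568 in wild type. Vcan, the versican that Adamts1 cuts, overlapped between all groups, with 2282 and 2578 in dKO at 2 months, 3356 and 2526 in dKO at day 25 and 2969 and 1717 in wild type.

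Of 14 measured proteases and inhibitors, Adamts5 was lower in dKO at day 25, at 172 and 622 against 1146 and 947 in wild type (log2 difference -1.67 ± 0.62 (SE), limma adjusted p = 0.603). Against wild type, dKO at 2 months was higher for Timp3, an inhibitor of metalloproteases, at 3288 and 1190 against 392 and 551, and for Timp1, at 1243 and 1159 against 656 and 739. It was lower for Ctsl, the lysosomal protease cathepsin L, at 13567 and 12240 against 23155 and 18947. Between the dKO ages 0 of the 14 reached an unadjusted p below 0.05.

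Of 16 measured transcription factors of the response to luteinizing hormone, 4 were lower and 0 higher in dKO than in wild type at day 25, against 3.44% and 4.89% of all genes. In dKO at 2 months 6 were higher and 0 lower than in dKO at day 25, against 3.73% and 2.91%. Relative to wild type, 4 were higher and 1 lower in dKO at 2 months, against 9.54% and 5.38%. Jun, a subunit of AP-1, had 2098 and 1865 in dKO at 2 months, 650 and 422 in dKO at day 25 and 1077 and 1574 in wild type. Its log2 difference from wild type at day 25 was -1.31 ± 0.29 (SE), with limma adjusted p = 0.482, and between the dKO ages 1.92 ± 0.29, with adjusted p = 0.712. Junb, another AP-1 subunit, had 243 and 253 in dKO at 2 months, 90 and 79 in dKO at day 25 and 79 and 109 in wild type. Runx1, which rises in granulosa cells of rodents at ovulation, was 55 and 59 in dKO at 2 months, 84 and 91 in dKO at day 25 and 407 and 144 in wild type, and its wild-type replicates differed more than its dKO replicates. Fosl2, a Fos family factor, was 7114 and 5334 in dKO at 2 months, 3814 and 3205 in dKO at day 25 and 2024 and 2991 in wild type, without overlap. Egr1, an early response factor, was 4919 and 4993 in dKO at 2 months, 3456 and 1827 in dKO at day 25 and 2614 and 2834 in wild type. Crem, a cAMP-responsive factor, was 168 and 115 in dKO at 2 months, above 82 and 90 in dKO at day 25 with 101 and 114 in wild type. Cited2, a transcriptional coregulator, was 2995 and 1497 in dKO at 2 months, 1435 and 1760 in dKO at day 25 and 3059 and 3662 in wild type.

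Of 19 measured genes of cAMP signalling and of the progesterone receptor, 0 were called at day 25, 1 was higher between the dKO ages and 4 were higher in dKO at 2 months than in wild type. Zbtb16, a zinc finger factor, had 267 and 221 in dKO at 2 months, 63 and 119 in dKO at day 25 and 91 and 76 in wild type (log2 difference between the dKO ages 1.48 ± 0.33 (SE), limma adjusted p = 0.712). Cxcl12, a chemokine, had 532 and 268 in dKO at 2 months, 183 and 264 in dKO at day 25 and 117 and 179 in wild type. Pgrmc1, a membrane haem-binding protein, had 9722 and 7485 in dKO at 2 months, 6978 and 5924 in dKO at day 25 and 5307 and 5022 in wild type. Il6 and Snap25, which are induced with cumulus expansion in mice, stayed at or below 12 on every array. Edn2, an endothelin made in mice at the time of rupture, lay between 31 and 40. Edn1 spread widely within dKO at day 25, at 1225 and 182, against 422 and 702 in dKO at 2 months and 133 and 211 in wild type.

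Of 9 genes for oocyte signals and their receptors, Bmp6 was lower in dKO at 2 months than in wild type, at 467 and 598 against 775 and 736. Gdf9, an oocyte factor that drives cumulus expansion, had 855 and 5374 in dKO at 2 months, 6771 and 9178 in dKO at day 25 and 5016 and 3046 in wild type, and Bmp15 was lowest on the same dKO 2-month replicate 1. Both are in the oocyte marker list given above.

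**Figure D4:**
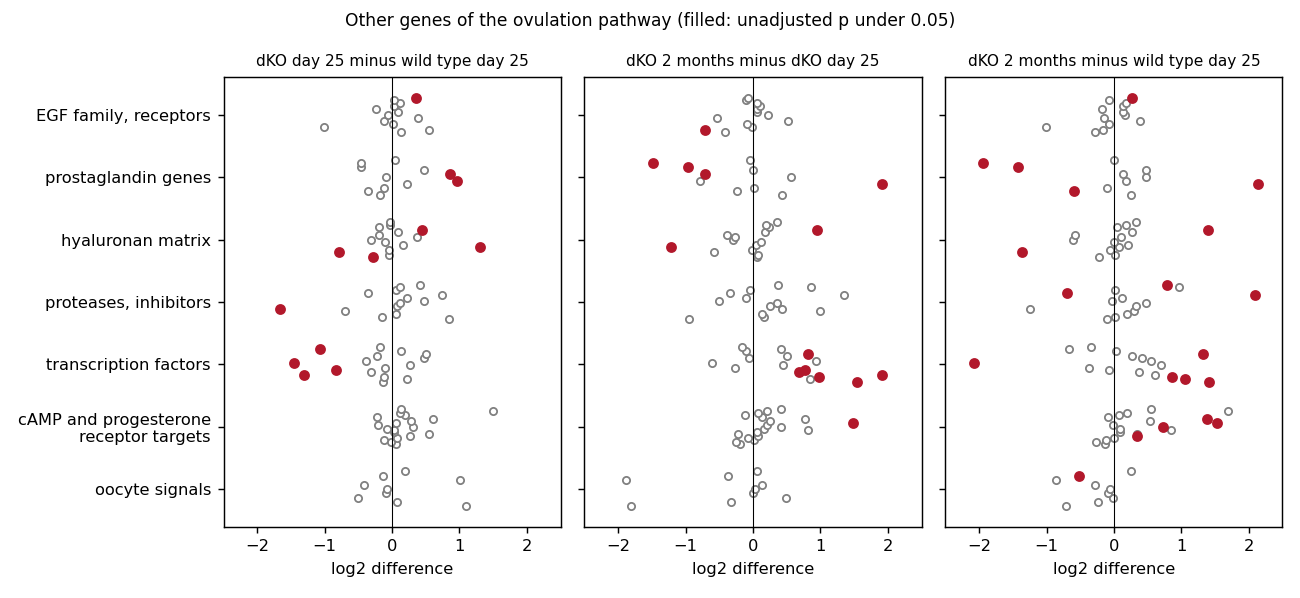
Log2 differences (x axis) of the 97 measured genes of 7 pathway lists (y axis) in the 3 comparisons, 1 point per gene; filled points have an unadjusted p under 0.05 in limma. Of 16 transcription factors, 4 are filled below 0 for dKO against wild type at day 25, where 3.44% of all genes were. Above 0, 6 are filled for dKO at 2 months against dKO at day 25, where 3.73% were. Both comparisons use the same dKO day 25 arrays, so these counts are not separate evidence.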

How the data were processed

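Total RNA of granulosa cells was labelled with biotin and hybridised to 1 array per sample, per the labels. The authors deposited intensity values per probe set on a linear scale as whole numbers, and the submitters' processing notes name affy and RMA. Versions and the genome build are not given in the sources used here. RMA gives all arrays nearly the same distribution, and this would hide a shift shared by most genes.

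Values were transformed as log2(value + 1), so a fold is on that scale and understates changes of dim genes. The 64 AFFX controls were left out, and 45037 probe sets were fitted with limma 3.58.1 in R 4.3.3: all 6 arrays, a mean per group, 3 residual degrees of freedom, two-sided contrasts with Benjamini-Hochberg adjustment over all probe sets and a threshold of 0.05. Unadjusted p-values are from the same fit. The platform annotation gave 1 symbol for 34945 probe sets, several for 932 and none for 9160. An intensity of 64 on at least 2 arrays separated brighter from dimmer probe sets. The fit was tested on simulated data. Precision is limited by having 2 arrays per group. The members and lists were chosen with earlier results of these data known.

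Named genes were the members, Foxo1 and Foxo3, up to 3 genes per pathway list, direction and comparison of smallest p among those at an unadjusted p under 0.05, and the 3 genes nearest in pattern to qualifying members. Egfr, Vcan, Il6, Snap25, Edn1, Edn2, Gdf9 and Bmp15 were named after their values were seen. Alternatives were array centring, repeated quantile normalization, pseudocounts of 16 and 0, a filter on dim probe sets, a trended robust prior, fits of the 4 arrays compared, array weights, a replicate block, the mean of a gene's probe sets and leaving out each array.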

Additional observations from a re-analysis of the deposited data

How the results depend on the processing

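The count of probe sets past an adjusted p of 0.05 was 0 in all 3 comparisons in limma and under every alternative run. Unadjusted p-values below 0.05 numbered 3668 for dKO against wild type at day 25, 2514 between the dKO ages and 5900 when dKO at 2 months was set against wild type. The first was 6110 in the fit of 4 arrays or without either dKO 2-month array, 5853 with array weights and 2337 without wild-type replicate 1. The others were 10127 and 11312 without dKO 2-month replicate 2; the dKO ages gave 1608 without dKO day 25 replicate 1, and dKO at 2 months against wild type gave 2960 and 3877 without wild-type replicates 1 and 2. With dim probe sets left out, fewer were tested and 2258, 1382 and 3780 passed, and with 1 mean per gene 1550, 1136 and 2731. With the replicate number as a block the counts were 3228, 1905 and 5000, and no adjusted p of a member passed. Deviations of same-numbered replicates from their group means had correlations of -0.16, -0.21 and 0.06 across probe sets. With 2 arrays per group the deviations within a group mirror each other. These values therefore cannot decide whether same-numbered replicates were paired. The members kept their signs except Pgr at day 25 (0.0194 with the mean of its probe sets), Adamts1 at day 25 (-0.028 without dKO day 25 replicate 1, the lowest of a range up to 0.17 over arrays left out) and Btc between the dKO ages (-0.20 without dKO day 25 replicate 2, -0.04 without dKO 2-month replicate 1, and up to 0.38 over arrays left out). Fits that drop an array leave its group with 1 array, taken to have the spread of the remaining groups. Dim signal limits Ptgs2, Has2, Ereg and Pgr, whose differences depend on the pseudocount. With 16 in place of 1, the log2 difference was -0.27 in place of -0.44 for Has2 at day 25, 0.27 in place of 0.50 for Ereg in dKO at 2 months against wild type, and 0.20 in place of 0.34 for Ptgs2 and 0.31 in place of 0.51 for Pgr between the dKO ages. The members at an unadjusted p below 0.05 in dKO at 2 months against wild type numbered 6 in place of 5 with array weights, with arrays centred on their median and in the fit of 4 arrays. Between the dKO ages they numbered 2 in place of 4 in the fit of 4 arrays. They numbered 3 with centred arrays, repeated quantile normalization, a pseudocount of 16, array weights or the replicate block.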
